A study of Mus musculus with 8 samples.

Results

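The Wnt7b locus was described through the peaks of 2 histone marks over a 100 kb interval of chromosome 15 (85340000 to 85440000, as listed, with positions that fit the chromosome lengths of mm9). The interval holds the start of Wnt7b, near 85412000 on the minus strand, with 28 kb upstream and 72 kb downstream of it. All peaks that overlapped the interval were taken, 37 of the 233295 in 8 lists, with 18 for H3K4me3 and 19 for H3K27me3. The interval was set by the position of the gene that the series title names and not by a threshold on the peaks, though the gene was picked with earlier results of these data known. The position of the start was taken as given and was not checked against an annotation of that build, so peaks are placed by their distance from it and no exon, intron or UTR is assigned. In the RefSeq gene table of GRCm38.p6 (Wnt7b, gene 22422), the neighbour on the upstream side is the long noncoding RNA gene AU022754, whose span overlaps that of Wnt7b. Peaks near the start can therefore not be assigned to one of these genes alone.

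The cells were germline stem cells, the cultured form of the spermatogonial stem cells of the testis, from the Green strain, C57BL/6 Tg14(act-EGFP)OsbY01, on DBA/2, with a genotype recorded as wild type. All groups carry the act-EGFP transgene, and all were grown with FGF2, GDNF and fetal bovine serum. Cultures about 5 months old (5M) were set against cultures about 60 months old (60M) by chromatin immunoprecipitation sequencing with an antibody against H3K4me3 or H3K27me3, with 2 libraries per mark and age (libraries 1 and 2, numbered as the replicates in the labels). Nothing in the labels ties the libraries of a group to different cultures or mice. The p-values thus measure the spread between libraries, which may be technical, and germline markers were not analysed here. The series title names activation of a Wnt7b and Jnk pathway in aging, and the comparison asks how both marks at Wnt7b differed after long culture.

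Wnt7b encodes a secreted Wnt ligand that binds Frizzled receptors with the coreceptors Lrp5 or Lrp6. Wnt ligands signal through beta-catenin or, in other settings, through Jnk, the kinase of Jun. H3K4me3 is found at the starts of active genes and of genes poised for activity, and H3K27me3 is written by Polycomb repressive complex 2 at silenced genes. Both marks on the same stretch of chromatin are common at developmental regulators in stem cells. In a population of cells, a mark in fewer cells and less of it per cell cannot be told apart.

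List lengths ranged from 41637 to 47415 peaks (H3K4me3) and from 12002 to 14940 (H3K27me3), with borders in steps of 1 kb. They give no read totals, so the depth is unknown, and a place with no listed peak may still carry the mark below the calling threshold. The length covered by H3K27me3 over the whole genome was 25.8 and 34.9 Mb at 5M and 29.5 and 25.4 Mb at 60M, and overlapped between the ages. Signal is the highest immunoprecipitation value of a peak as the authors list it. How they scaled it is not stated, so signal was mainly read as a percentile within each list. An exact two-sided permutation test of 2 libraries against 2 has a smallest p of 0.333, so no difference here could pass a threshold of 0.05. Values are given for each library, with whether the ages overlap.

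At the Wnt7b locus, H3K4me3 at the start had the same position and width in all 4 libraries, while H3K27me3 covered less of the interval at 60M. H3K27me3 peaks covered 13 kb in each 5M library, against 7 and 8 kb at 60M (13.0 ± 0 and 7.5 ± 0.707 kb, SD, n = 2, exact permutation p = 0.333). The ages did not overlap, and the 60M mean was 57.7% of the 5M mean. H3K4me3 covered 12 and 13 kb at 5M, with 13 and 10 kb at 60M, which overlapped (12.5 ± 0.707 and 11.5 ± 2.12 kb, SD, n = 2, exact permutation p = 1). Most of the H3K27me3 difference lay in 1 domain, 40 to 48 kb downstream of the start. Both H3K27me3 regions within 9 kb downstream of the start were listed in all 4 libraries.

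**Figure D1:**
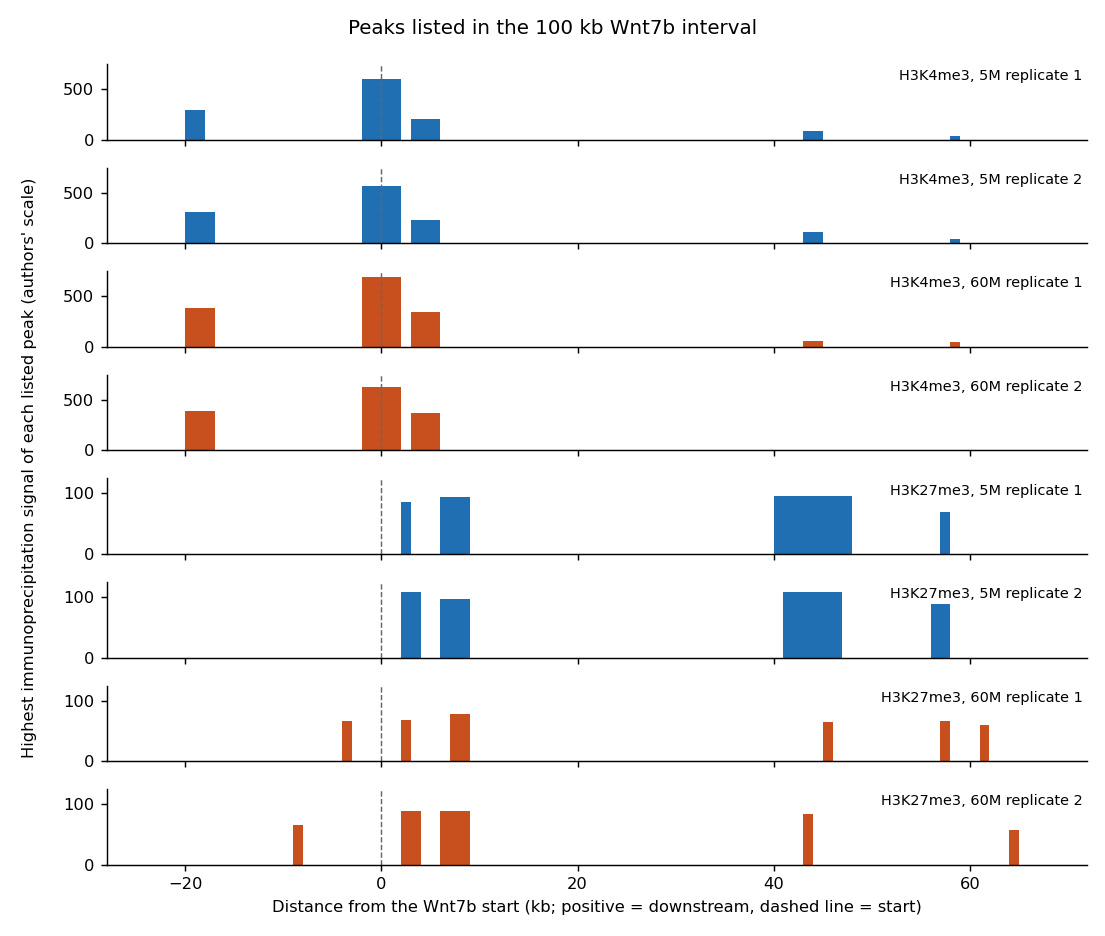
Each row is 1 library, each bar 1 listed peak, the horizontal axis the distance from the Wnt7b start in kb (positive is downstream) and the height the highest signal of the peak on the authors' scale. The H3K27me3 domain of 8 and 6 kb at 5M is a single bin of 1 kb in each 60M library, and the H3K4me3 peak at the start spans 4 kb in all 4.

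H3K4me3 at the start itself was among the stronger peaks of every list. The region on chromosome 15 from 85410000 to 85413999 ran from 2 kb upstream to 2 kb downstream of the start and was 4 kb wide in all 4 libraries. Its summit lay 1.5 kb downstream of the start in each. The signal was 596.2 and 568.5 in the 5M libraries and 687.9 and 626.1 in the 60M libraries. Both 60M libraries were above both 5M libraries, by 12.8% in the mean, as in 42.1% of the H3K4me3 regions listed in all 4 libraries. In percentiles of its list, the region stood at 89.1 and 89.8 at 5M and at 96.4 and 96.1 at 60M (89.4 ± 0.496 and 96.2 ± 0.221, SD, n = 2, exact permutation p = 0.333). The order of the ages depended on the scale. Divided by the median signal of the list, the values were 3.26 and 3.17 at 5M and 3.19 and 2.63 at 60M, which overlapped and had a lower mean at 60M (exact permutation p = 0.667). H3K4me3 at the start was thus listed with equal width at both ages, and the direction of its difference in strength changed with the scale. Equal width was common. Of the H3K4me3 regions listed in all 4 libraries, 90.0% covered at least as much at 60M in the mean and 78.3% at most as much.

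A second H3K4me3 region, 3 to 6 kb downstream of the start, was stronger at 60M on every scale used. This region (85406000 to 85408999) was 3 kb wide in all 4 libraries. Its signal was 205.8 and 232.0 at 5M and 347.3 and 370.2 at 60M, 63.9% higher in the mean. The corresponding percentiles were 53.9 and 58.8 at 5M and 67.2 and 68.3 at 60M (56.4 ± 3.44 and 67.7 ± 0.782, SD, n = 2, exact permutation p = 0.333). The ages did not overlap in signal or in percentile, nor in signal over the list median, where 14.4% of regions were higher at 60M without overlap. Measured against the start region of the same library, it had 34.5% and 40.8% of the start signal at 5M and 50.5% and 59.1% at 60M. The downstream region was thus nearer in signal to the start peak in both 60M libraries than in either 5M library. This ratio removes a constant factor between libraries, but not a difference in the range of signal. The median signal of the lists was 183.0 and 179.4 at 5M and 215.4 and 238.4 at 60M. The highest signal of the lists was 866.5 and 810.9 against 844.8 and 776.9. Whether the ratio differed with this range was not tested, and its share over the genome was not computed.

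The third region listed in all 4 H3K4me3 libraries lay upstream, 17 to 20 kb from the start (85429000 to 85431999). It was 2 kb wide in 5M library 1 and 3 kb wide in the other 3. Signal was 292.5 and 309.8 at 5M and 385.8 and 388.7 at 60M, with percentiles of 65.4 and 68.2 against 70.7 and 70.6. These ages did not overlap, but divided by the list median the values were 1.60 and 1.73 against 1.79 and 1.63 and did overlap. As a share of the start signal it had 49.1% and 54.5% at 5M and 56.1% and 62.1% at 60M. The direction was the same as for the region just downstream of the start, with a smaller difference.

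All 3 of these regions had higher percentiles at 60M without overlap, against 21.4% of the 35229 H3K4me3 regions that were listed in all 4 libraries, and 44.5% of those regions were lower without overlap. Over all of them the median difference was -1.52 percentile points. The region 3 to 6 kb downstream was 11.4 points higher at 60M, and 4.88% of all regions differed by at least as much in that direction. The start region was 6.84 points higher and the upstream region 3.87, and 10.4% and 17.3% of regions had differences at least as high. As a further scale, signal was divided by the median over these 35229 regions. The downstream region then had 0.808 and 0.908 at 5M and 1.24 and 1.29 at 60M, and 1.07% of regions had a difference at least as high. The upstream region also stayed apart, at 1.15 and 1.21 against 1.37 and 1.35. The start region overlapped, at 2.34 and 2.22 against 2.45 and 2.18. On that scale 25.8% of all regions were higher and 47.5% lower at 60M without overlap. The 3 regions are neighbours and share their libraries, so they are not independent of each other.

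**Figure D2:**
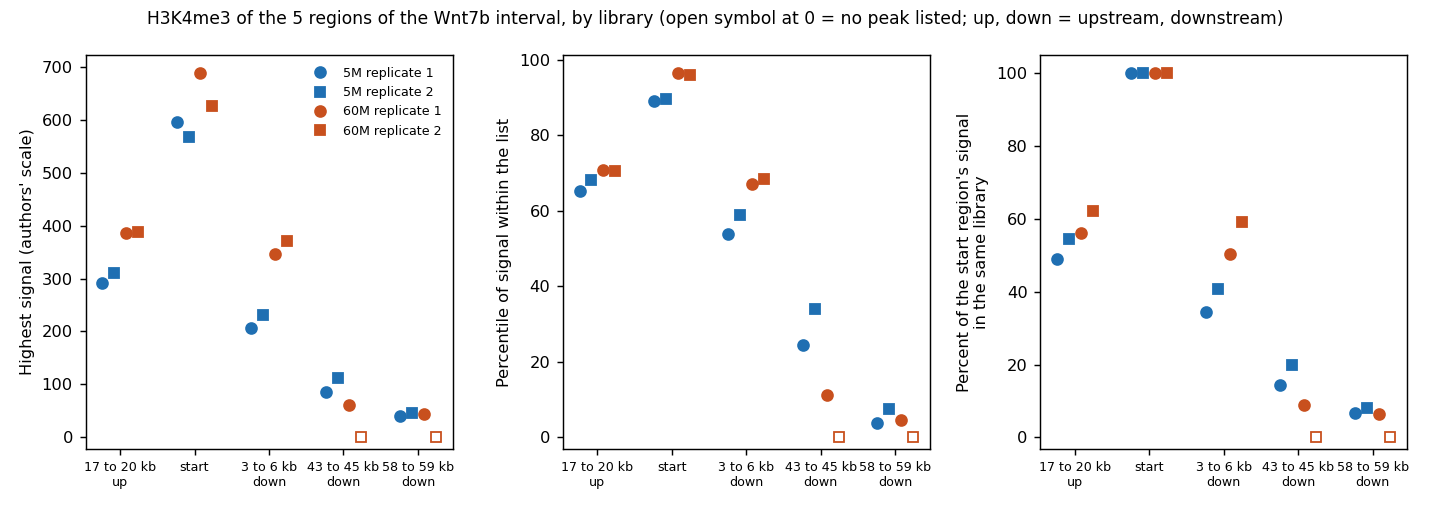
The 5 H3K4me3 regions of the interval from upstream to downstream, with 1 symbol per library, as signal on the authors' scale (left), percentile within the list (middle) and percent of the start region's signal in the same library (right). The region 3 to 6 kb downstream is higher in both 60M libraries in all 3 panels, and open symbols at 0 mark regions with no listed peak.

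Far downstream, H3K27me3 covered less at 60M. A weak H3K4me3 region in the same stretch had a lower signal in 60M library 1 and was not listed in 60M library 2. The H3K27me3 domain (85364000 to 85371999) covered 8 and 6 kb in the 5M libraries and 1 kb in each 60M library (7.0 ± 1.41 and 1.0 ± 0 kb, SD, n = 2, exact permutation p = 0.333). The bin listed at 60M was not the same in both libraries, since library 1 listed 85366000 and library 2 listed 85368000. Its signal was 96.3 and 109.2 at 5M and 65.1 and 83.1 at 60M. In −log10 p against the control, the authors listed 14.30 and 15.95, their ceiling, at 5M and 10.17 and 12.52 at 60M. In percentiles the domain stood at 96.4 in both 5M libraries and at 82.8 and 94.4 at 60M. Of the H3K27me3 regions listed in all 4 libraries, 22.7% were lower by at least as much. Without 60M library 1 the difference was -1.92 percentile points. The domain was thus shorter and its listed parts weaker in both 60M libraries, with little difference in percentile for 60M library 2. Signal as listed was lower without overlap in 25.4% of the H3K27me3 regions listed in all 4 libraries.

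Among the H3K27me3 regions listed in all 4 libraries, few differed as much in covered length as this domain, which was 6 kb shorter at 60M. These are 4962 of the 26634 H3K27me3 regions, so a domain that was unlisted in any library was not counted. The domain was ranked because it had the largest drop in the interval. Of 4962 regions listed in all 4 libraries, 27 (0.544%), the domain included, were shorter by at least 6 kb. Of the 1558 regions that covered at least as much over the 4 libraries, 4 kb in the mean, the same 27 were 1.73%, and 3 (0.193%) were longer by at least 6 kb. Without overlap, 16.7% of the 4962 regions were shorter and 8.28% longer at 60M. The domain was the 1 of the 3 such regions at Wnt7b that was shorter without overlap, and none was longer.

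Within the domain lay an H3K4me3 region of 2 kb (85367000 to 85368999), 43 to 45 kb downstream of the start. Its signal was 85.2 and 112.7 at 5M and 61.0 in 60M library 1, and 60M library 2 listed no peak there. The percentiles were 24.6 and 34.1 at 5M and 11.3 in the 60M library that listed it. It was therefore a weak region in the 3 lists that held it, below the median of each. Lower percentiles at 60M without overlap were found in 44.5% of the H3K4me3 regions listed in all 4 libraries. The share among regions unlisted in a library was not computed. The 2 bins of this weak region were the only ones in the interval with both marks in all libraries of an age. There were 2 such bins at 5M and 0 at 60M, out of 3 bins with each mark in any library. Over the genome, 11351 bins had each mark in any library, and both marks were in all libraries of an age in 35.3% of them at 5M and 22.8% at 60M. Bins with both marks in all 5M but not all 60M libraries made up 20.7%, and the reverse 8.24%, so the direction at Wnt7b was also the more frequent one elsewhere. Any pair of an H3K4me3 and an H3K27me3 library shared 2 or 3 bins at 5M and 0 to 2 at 60M. The count at 5M became 0 when peaks below the 25th percentile of their list were left out, because the H3K4me3 peak of 5M library 1 was below it. The count at 60M became 1 without 60M library 1 of H3K27me3.

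Near the start, H3K27me3 flanked the H3K4me3 peak on the downstream side, with similar covered length at both ages and a lower mean signal at 60M. The region that ended at the border of the H3K4me3 peak (85408000 to 85409999, 2 to 4 kb downstream) covered 1 kb in library 1 and 2 kb in library 2 of either age. Its signal was 86.0 and 109.2 at 5M and 68.0 and 88.3 at 60M, 80.1% of the 5M mean, and these ranges overlapped. Over the median of the regions listed in all 4 libraries the ages were just apart, at 1.56 and 1.71 against 1.15 and 1.55, as in 28.4% of regions. Over the list median the ages overlapped, at 1.86 and 2.275 against 1.48 and 1.91, and they overlapped in percentiles too. A further region (85403000 to 85405999, 6 to 9 kb downstream) covered 3 kb in each 5M library, against 2 and 3 kb at 60M. Its signal was 95.0 and 96.5 at 5M and 78.5 and 89.5 at 60M. The ages did not overlap in that signal, which at 60M was 87.7% of the 5M mean, nor over the list median, at 2.06 and 2.01 against 1.71 and 1.94, as in 23.9% of regions. They did overlap over the median of the regions listed in all 4 libraries, at 1.72 and 1.51 against 1.32 and 1.58. In percentiles the ages overlapped as well, at 96.1 and 94.4 against 91.8 and 96.1. These regions lay on either side of the H3K4me3 region 3 to 6 kb downstream, and the nearer one shared a bin with it. That bin (85408000) had H3K4me3 in all 4 libraries and H3K27me3 in library 2 of each age. The H3K4me3 region at the start overlapped no H3K27me3 peak in any list.

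Within 5 kb of the start, H3K27me3 covered 1 and 2 kb at 5M, against 2 kb in each 60M library (1.5 ± 0.707 and 2.0 ± 0 kb, SD, n = 2, exact permutation p = 1). The additional bin at 60M was a single peak of 1 kb in library 1, upstream of the start (85415000 to 85415999, signal 65.7). In all, 4 H3K27me3 regions of the interval were listed in 1 library alone. Each was 1 kb wide and came from a 60M library. Besides 85415000 they began at 85420000 (65.5), 85350000 (59.9) and 85347000 (57.4), with the signal in parentheses. No 2 of the 4 fell in the same place, so none was repeated between the 60M libraries. Of all 14599 H3K27me3 regions listed in 1 library alone, 57.0% came from a 60M library. Because of them the number of H3K27me3 peaks was higher at 60M, with 6 and 5 against 4 and 4, while the covered length was lower. The number of peaks was higher at 60M without overlap in 10.9% of 100 kb windows with H3K27me3.

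The remaining regions lay 56 to 59 kb downstream and were listed in both 5M libraries and in 60M library 1 for each mark. The H3K27me3 region there (85354000 to 85355999) had a signal of 68.7 and 88.3 at 5M and 65.7 in 60M library 1. The adjoining H3K4me3 region (85353000 to 85353999) was the weakest of the interval, with 39.4 and 46.0 at 5M and 44.0 in 60M library 1. Neither was listed in 60M library 2 of its mark. The strongest H3K27me3 peak anywhere in the interval stood at percentiles of 96.4 in both 5M libraries and 91.8 and 96.1 in the 60M libraries.

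Counted in bins of 1 kb, H3K27me3 had some bins covered at 5M only and H3K4me3 had none covered at 1 age only. Of 19 bins with H3K27me3 in any library, 4 (21.1%) were 5M-only (covered in each 5M but no 60M library), and 0 were 60M-only. Over the genome these shares were 8.92% and 4.55% of 54965 bins. All 4 bins belonged to the domain 40 to 48 kb downstream, so they count as 1 place. Of 13 bins with H3K4me3, 0 were covered at 1 age only in either direction, against 7.27% for 5M and 5.22% for 60M over the genome. With so few bins, counts of 0 are near the genome shares and do not set the marks apart. A total of 9 H3K4me3 bins and 3 H3K27me3 bins were covered in all 4 libraries of their mark.

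Set beside all other windows of 100 kb with H3K27me3 in any library, the interval lay toward the lower end. Of 10634 windows, 212 (1.99%) had a mean at least 5.5 kb lower at 60M and 69 (0.649%) a mean at least that much higher. Windows with little H3K27me3 cannot differ by 5.5 kb. Of the 549 windows with at least the same mean length over the 4 libraries, 10.25 kb, 67 (12.2%) were lower by at least as much, and the median difference was -1.5 kb. A lower mean at 60M, by any amount, was found in 357 (65.0%) of the 549. Among all 10634 windows, 16.7% were lower and 11.5% higher at 60M without overlap. For H3K4me3, 18.5% of 18466 windows were lower and 13.6% higher without overlap, and the Wnt7b interval was neither.

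**Figure D3:**
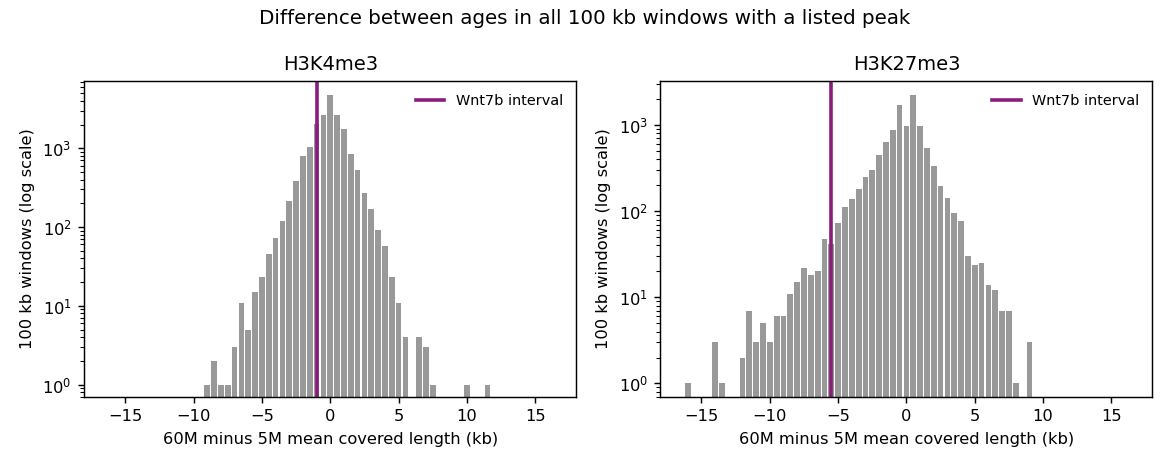
Number of 100 kb windows (vertical, log scale) by the difference of 60M minus 5M in mean covered length in kb (horizontal), for windows with a peak of the mark in any library. The line marks the Wnt7b interval, at -1 kb for H3K4me3 and at -5.5 kb for H3K27me3, where it lies in the lower flank of the distribution.

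None of the 5 windows on either side had a difference as large for H3K27me3, and several held too little of the mark to reach it. The next 100 kb on the upstream side had 9 and 12 kb of H3K27me3 in the 5M libraries against 9 and 8 kb in the older cells, and the one after it had 10 and 13 kb against 11 and 8 kb, so that both overlapped. On the downstream side the nearest window had 1 and 3 kb in the 5M libraries, against 0 and 5 kb in the 60M ones. Of these windows, the fifth upstream was the one other case with H3K27me3 lower at 60M without overlap, at 11 and 11 kb against 8 and 7 kb. With the interval widened to 200 kb, H3K27me3 covered 20.0 kb at 5M and 15.5 kb at 60M in the mean, and the ages overlapped (exact permutation p = 0.667).

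**Figure D4:**
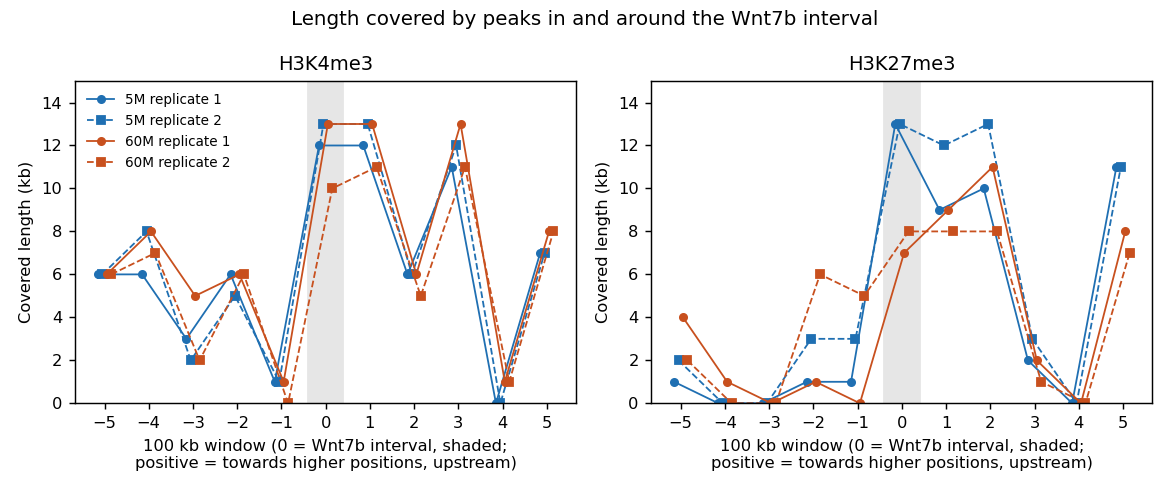
Covered length in kb (vertical) in 11 windows of 100 kb (horizontal; 0 is the Wnt7b interval, shaded, and positive windows lie upstream), with 1 line per library. In the H3K27me3 panel the 5M libraries at 13 kb stand apart from the 60M libraries at 7 and 8 kb in the shaded window.

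H3K4me3 regions with a pattern like that of the Wnt7b start were found on other chromosomes. Likeness was the Euclidean distance over 8 percentiles, 1 for each library, with 0 where no peak overlapped the region, and the start region had 0 in all 4 H3K27me3 libraries. Of the 54585 H3K4me3 regions, 78 others lay within a distance of 5. The nearest were on chromosome 12 (74645000 to 74648999, distance 1.99), chromosome 7 (129431000 to 129434999, 2.18, and 13628000 to 13630999, 2.19), chromosome 11 (77576000 to 77580999, 2.28) and chromosome 9 (30727000 to 30730999, 2.50). The closest, on chromosome 12, was 4 kb wide in all 4 libraries like the Wnt7b start, with percentiles of 90.8 and 89.8 at 5M and 95.6 and 96.3 at 60M.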

How the data were processed

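H3K4me3 and H3K27me3 were measured by ChIP-seq in germline stem cells, with 2 libraries per mark and age. Per the labels, chromatin was cross-linked with formaldehyde and sonicated with or without MNase, without saying which for each library. The submitters' processing notes name Bowtie 1.1.2, CASAVA 1.8.4 and build mm10. Neither a peak caller nor a scaling is named in these notes. Each library has its own peak list, not pooled. Per the file headers it holds the highest immunoprecipitation signal, −log10 p of the immunoprecipitate alone and against control, and a q-value for each peak. Covered length was counted in whole 1 kb bins. Positions are given as listed. They ran past mm10 chromosome ends on 9 of 20 chromosomes (1331 peaks) and past mm9 ends on 1 (2 peaks, at most 687 bp; lengths from GenomeInfoDb 1.38.1), so they were read as mm9 and not converted.

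Python 3.11.15, numpy 2.4.6, pandas 2.3.3 and matplotlib 3.10.9 were used. Peaks sharing a base were merged across the 4 libraries of a mark. Windows of 100 kb were laid on a grid aligned to the interval. The code for region calls and windows was checked on simulated lists with planted differences and no noise. That check does not measure how often calls from 2 libraries per age are wrong. Regions were described by a rule: all in the interval, in full where listed in 4 libraries or within 5 kb of the start, plus the 5 most like the start region. Promoter motifs were not analysed here. The gene, lists and measures were chosen with earlier results of these data known, and the alternatives are given at the end.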

Additional observations from a re-analysis of the deposited data

How the results depend on the processing

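Alternatives were equal list lengths (41637 and 12002 peaks), a threshold at the 25th percentile of signal, each library left out, other windows around the start, other scales of signal and merged regions. Scales over shared regions, the signal as listed and all alternatives for single regions were chosen after seeing the data. The H3K27me3 covered length was lower at 60M by 5.5 kb in 4 of them (equal list lengths, the stricter threshold, whole peaks and the replicate block). These 4 could not change that value. Each H3K27me3 peak of the interval lay wholly inside it, at percentile 75.5 or higher of its list, and the block keeps the same means. Leaving out a library gave a difference of -6 to -5 kb. In the interval widened to 200 kb it was -4.5 kb. In the replicate block, 60M minus 5M within each replicate number, the exact sign-flip p was 0.5, the smallest possible. The block leaves every difference of means as it is, so it could change no direction. The deviations of libraries with the same number correlated at 0.12 for H3K4me3 and -0.0038 for H3K27me3 across shared regions. The H3K4me3 strength at the start reversed to -0.30 with signal over the list median. With a library left out, the H3K4me3 covered length ran from -2.5 to 0.5 kb (0.5 without 60M library 2) and the H3K27me3 length near the start from 0 to 1 kb. The H3K27me3 strength differences 6 to 9 and 2 to 4 kb downstream reversed to 0.79 and 0.45 percentile points without 60M library 1 (lowest -3.46 and -9.70). Counts of H3K4me3 bins at 1 age ran from 0 to 3 for 5M and 0 to 1 for 60M, of H3K27me3 bins at 60M only from 0 to 2, and of bins with both marks at 60M from 0 to 1. As merged regions, 0 H3K27me3 regions were 5M-only, because the 60M bins fall inside the 5M domain. The stricter threshold left 0 bins with both marks at 5M. The unknown depth limits what an unlisted peak means.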
